A study of Mus musculus with 19 samples.

Results

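The 10 genes described here belong to the YAP and TEAD branch of the Hippo pathway: YAP1, WWTR1, TEAD1, CCN1, CCN2, ANKRD1, AMOTL2, AJUBA, LATS2 and CRIM1. They were taken by symbol from the table of gene counts, which held 31276 genes, and all 10 were found. All 10 also passed the filter on low counts, as did 16704 genes in all. RNA had been sequenced from tumours of HCC827, an established human non-small cell lung cancer line that carries a mutated EGFR, grown in NCG mice, a strain that lacks T, B and natural killer cells. The 19 libraries fell into 4 groups: 5 controls on the solvent DMSO, 4 on 6-thio-dG (called thio), a modified nucleoside that telomerase adds to chromosome ends, 5 on osimertinib, which blocks the mutated receptor, and 5 on both drugs (the combination). All groups share the line and the host, and no dose, treatment time, age or sex of the mice was given in the labels. Whether each library is a mouse of its own is not stated, so the p-values speak only to the spread among these libraries, which may be technical.

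The Hippo pathway is a kinase cascade in which STK3 and STK4, with the scaffold SAV1, activate LATS1 and LATS2, and these phosphorylate the co-activators YAP1 and WWTR1 (also called TAZ) and keep them out of the nucleus. When the cascade is low, YAP1 and WWTR1 bind the DNA-binding TEAD proteins and switch on targets such as CCN1, CCN2 and ANKRD1. Some targets, among them LATS2 and AMOTL2, feed back to restrain YAP1. Nuclear YAP and TEAD activity is known for helping EGFR-mutant lung cancer cells survive EGFR inhibitors, and it is set largely by phosphorylation and location of the proteins, which RNA counts do not measure.

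Total counts per library ran from 17731752 to 35397346. The epithelial markers EPCAM, CDH1, KRT8, KRT18, KRT19 and EGFR summed to between 14110 and 23490 CPM (counts scaled to library size) in the 19 libraries. In the same libraries 7 endothelial markers summed to at most 15.4 CPM and 7 macrophage markers to at most 20.1 CPM. The sums of 10 fibroblast markers reached 945.5 CPM and those of 10 skeletal muscle markers 959.7 CPM. Counts were by human symbol and the handling of host reads is not known, so these sums do not measure the share of host cells. Transcripts of the mitochondrial genome made up 7.04 to 9.29% of control counts, 5.27 to 7.87% of thio counts, 8.62 to 16.0% of osimertinib counts and 11.0 to 30.2% of combination counts. Combination 3 (20.9%) and combination 5 (30.2%) were the highest, and thio 3 (5.27%) the lowest. These 3 libraries stood apart in an earlier look at the same data, so results are also given without them and with the mitochondrial percent as a covariate.

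With all libraries at most 4 of the 10 genes passed the test in any comparison. Those 4, between the combination and thio, were all lower, and the calls against control were in both directions. Fold changes are log2 with SE, from edgeR's quasi-likelihood test with Benjamini-Hochberg adjustment over the 16704 genes tested, and an adjusted p under 0.05 was called. Under osimertinib 1 of the 10 genes was called against control, with 0 higher and 1 lower, where 4.16% of all genes were called (2.7% higher and 1.46% lower). Under thio 1 was called, with 1 higher and 0 lower, against 13.9% of all genes (9.27% higher and 4.63% lower). In the combination 2 were called against control, with 1 higher and 1 lower, against 48.7% of all genes (25.7% higher and 23.1% lower).

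Of the 10 genes edgeR called 0 between the combination and osimertinib, where 15.8% of all genes were called (8.09% higher and 7.66% lower). DESeq2 also called 0 there, limma voom called 2, and 2 had an unadjusted p under 0.05. Against thio 4 were called in the combination, with 0 higher and 4 lower, against 44.2% of all genes (21.2% higher and 22.9% lower). For the interaction of the drugs, the effect of thio with osimertinib minus its effect without, edgeR called 0 genes, against 3.45% of all genes (1.24% higher and 2.21% lower). DESeq2 called 1 in the interaction, limma voom 2, and 2 had an unadjusted p under 0.05. The comparisons against control share the control libraries, and those of the combination share the combination libraries.

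The median log2 fold change of the 10 genes lay near that of all genes under osimertinib (-0.0818 against 0.02) and in the combination against control (-0.132 against 0.0171). It was 0.28 against 0.00582 under thio and -0.41 against 0.0281 between the combination and thio. For the combination and osimertinib the medians were -0.117 and -0.000549. With upper-quartile scaling the median of all genes between the combination and thio moved to 0.21, so values of that comparison shift with the scaling.

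**Figure D1:**
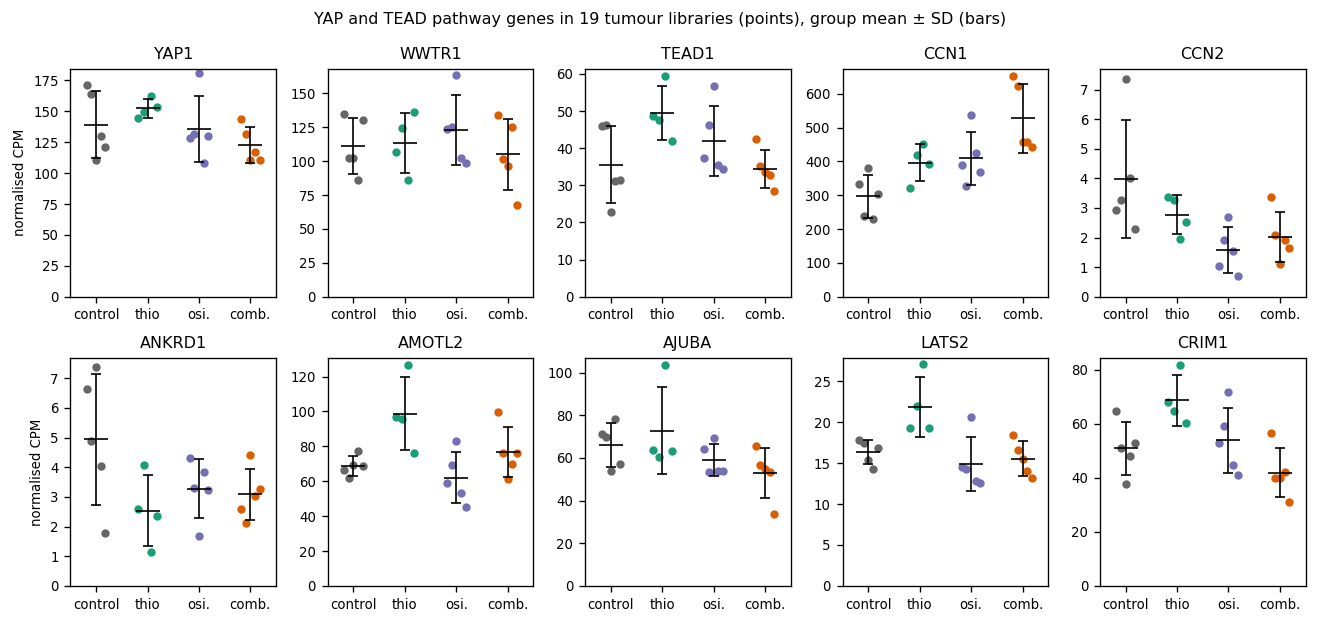
Normalised CPM (y axis, linear, from 0) of each of the 10 genes in every library (points) of the 4 groups, with the group mean and SD as bars. The combination points of CCN1, from 443 to 653 CPM, all lie above the control points, and the thio points of LATS2 (19.3 to 27.1 CPM) and CRIM1 (60.2 to 81.8 CPM) lie above the combination points.

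The co-activators YAP1 and WWTR1 were called in none of the 6 comparisons by edgeR. YAP1 was at 171, 164, 111, 129.9 and 121 CPM in the control libraries and at 144, 149.5, 163 and 153 CPM under thio. It was at 128, 132, 181, 109 and 130.0 CPM under osimertinib and at 144, 131, 111, 117 and 111 CPM in the combination. The order of the group means was thio, control, osimertinib, combination, and neighbours in that order overlapped. Every combination library, combination 1 only just, lay below every thio library. That last difference was -0.31 ± 0.147 (adjusted p = 0.0903) and passed only when combination 1 was left out (-0.38, adjusted p = 0.0482).

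WWTR1, the paralogue of YAP1, had a control mean of 111 ± 20.5 CPM (SD, n = 5) and a thio mean of 113 ± 22.0 CPM (n = 4). Its osimertinib mean was 123 ± 25.8 CPM (n = 5) and its combination mean 105 ± 26.1 CPM (n = 5). All 4 groups overlapped. In the 5 pairwise comparisons its fold changes ran from -0.22 ± 0.182 between the combination and osimertinib to 0.14 ± 0.181 under osimertinib (adjusted p = 0.383 and 0.715). The interaction of the drugs for WWTR1 was -0.25 ± 0.264 (adjusted p = 0.554). WWTR1 was lowest in combination 5 at 67.9 CPM and highest in osimertinib 3 at 163 CPM. Strand was not kept by the kit, so reads of WWTR1 and its antisense gene WWTR1-AS1 cannot be told apart where they overlap, but WWTR1-AS1 was listed at only 9 to 41 counts per library against 1080 or more for WWTR1. WWTR1 reads per YAP1 read had a median of 0.786 in control and also in thio, 0.941 under osimertinib and 0.866 in combination libraries, with overlapping ranges.

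TEAD1, a DNA-binding partner of both, was lower in the combination than in thio. It was at 48.7, 47.7, 59.5 and 41.8 CPM under thio and at 42.4, 35.1, 33.5, 32.7 and 28.3 CPM in the combination. All but combination 1 lay below the lowest thio library. The difference was -0.52 ± 0.191 (adjusted p = 0.0324). It was lost without thio 1 (adjusted p = 0.0507), thio 3 (adjusted p = 0.0903), combination 2 (adjusted p = 0.05, at the threshold), combination 3 (adjusted p = 0.0603), combination 4 (adjusted p = 0.0582) or combination 5 (adjusted p = 0.07). With the mitochondrial percent as a covariate it was -0.0955 (adjusted p = 0.894), without the 3 libraries together -0.33 (adjusted p = 0.311) and with upper-quartile scaling -0.34 (adjusted p = 0.103).

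TEAD1 in control was spread from 22.7 CPM in control 3 to 46.3 CPM in control 2, and under osimertinib from 34.3 to 56.6 CPM. Its value against control was 0.48 ± 0.191 (adjusted p = 0.0972) under thio, with 4 thio libraries that overlapped the 2 highest controls. Leaving out control 2 gave 0.59 (adjusted p = 0.0441), and limma voom gave 0.49 (adjusted p = 0.0389). In bulk tumour RNA, fewer cells of a type and less RNA per cell cannot be told apart, which applies to each difference given here.

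CCN1, a secreted matrix protein and a classical YAP target, rose in the combination and was the firmest call among the 10 genes. It was at 332, 239, 382, 229.5 and 304 CPM in control and at 653, 624, 459, 457 and 443 CPM in the combination. Every combination library lay above every control library, with combination 1 and combination 2 the highest of all 19. The rise was 0.83 ± 0.167 on the log2 scale, a 1.77-fold difference (adjusted p = 0.000732). It was called in all 27 alternatives and ranged from 0.74 without combination 1 to 0.93 without control 3 when single libraries were left out. With the mitochondrial percent as a covariate it was 1.06 (adjusted p = 0.0108), and without the 3 libraries 0.95 (adjusted p = 0.00184).

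With either drug alone CCN1 lay between control and the combination. It was at 321, 420.2, 451 and 393 CPM under thio and at 388, 327, 536, 424 and 369 CPM under osimertinib. Each of these groups overlapped control only through control 1 and control 3. Against control CCN1 had 0.41 ± 0.176 (adjusted p = 0.116) under thio and 0.46 ± 0.166 (adjusted p = 0.126) under osimertinib, and neither passed.

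The order of the CCN1 group means was control, thio, osimertinib, combination, from 297 ± 63.9 to 527 ± 102 CPM (SD, n = 5 each). Thio and osimertinib, neighbours in that order, overlapped. The combination had 0.37 ± 0.166 against osimertinib (adjusted p = 0.121) and 0.41 ± 0.177 against thio (adjusted p = 0.0641). The value against thio was called by DESeq2 (0.42, adjusted p = 0.0446), by limma voom with quality weights (0.57, adjusted p = 0.00574), with upper-quartile scaling (0.59, adjusted p = 0.00885), without combination 5 (0.47, adjusted p = 0.0498) and without the 3 libraries (0.61, adjusted p = 0.0445). The value against osimertinib was called by limma voom (0.51, adjusted p = 0.0132). The interaction of the drugs for CCN1 was -0.05 ± 0.242 (adjusted p = 0.921).

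CCN2, also a secreted matrix protein and a classical YAP target, was lower under osimertinib and in the combination. It had few reads, from 16 to 214 counts per library. It was at 2.94, 3.28, 7.37, 4.00 and 2.30 CPM in control, and at 1.06, 1.91, 2.70, 1.56 and 0.701 CPM under osimertinib. Control 3 was the highest of all libraries and osimertinib 5 the lowest, and the groups overlapped only through osimertinib 3 and control 5. The fall under osimertinib was -1.31 ± 0.359 (adjusted p = 0.0422), a fold of 0.403.

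That call was near the threshold. It was lost without control 3 (-0.97, adjusted p = 0.157), control 4 (adjusted p = 0.0803), osimertinib 1 (adjusted p = 0.101), osimertinib 2 (adjusted p = 0.0691), osimertinib 4 (adjusted p = 0.107) or osimertinib 5 (adjusted p = 0.0969). It was also lost without combination 2 (adjusted p = 0.0531) or combination 4 (adjusted p = 0.0525) (the combination bears on it only because all libraries share 1 estimate of variation). With the mitochondrial percent as a covariate it was -1.12 (adjusted p = 0.106), and with only the compared groups in the fit -1.33 (adjusted p = 0.0773).

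In the combination CCN2 was at 3.36, 2.07, 1.11, 1.90 and 1.63 CPM. Of these libraries 4 lay below every control and combination 1 lay among the controls. The fall against control was -0.97 ± 0.358 (adjusted p = 0.0297). It was lost without control 3 (-0.63, adjusted p = 0.141), combination 3 (adjusted p = 0.0848), combination 4 (adjusted p = 0.0533) or combination 5 (adjusted p = 0.0635), with the mitochondrial percent as a covariate (-0.42, adjusted p = 0.677) and without the 3 libraries (-0.72, adjusted p = 0.187). Under thio CCN2 was at 3.36, 3.28, 1.95 and 2.51 CPM, within the control range except for thio 3, with -0.52 ± 0.374 (adjusted p = 0.37).

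Fibroblast markers, whose cells are known to express CCN2, were set beside these values. The 10 markers summed to 406.6 to 945.5 CPM in control, with the highest sum in control 3, the library with the highest CCN2. They summed to 463.5 to 816.4 CPM in osimertinib, 379.8 to 837.6 in the combination and 257.6 to 389.7 in thio. DCN and THY1 were the markers at 0 counts in some libraries. COL1A1 gave the most to the sums, with a mean of 405.8 CPM in control. The markers did not all move together. Of the 9 past the filter edgeR called 1 higher and 4 lower under thio against control (9.27% and 4.63% of all genes). It called 2 higher and 4 lower in the combination (25.7% and 23.1%), and 1 higher and 0 lower under osimertinib (2.7% and 1.46%). Thio, the group with the lowest sums, had CCN2 values within or just below the control range, and osimertinib, whose sums overlapped control, had the lowest CCN2. The part of these cells in the CCN2 differences was not tested.

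In the combination CCN1 rose and CCN2 fell against control, and their ratio of reads within each library does not depend on the scaling between libraries. The ratio was chosen after the values had been seen and is given with no test. CCN1 reads per CCN2 read were 113, 73, 51.8, 57.4 and 132 in control and 95.6, 128, 232 and 156 in thio. They were 368, 171, 198, 271 and 526 in osimertinib and 194, 302, 412, 240 and 271 in the combination. Every osimertinib and combination library lay above every control library, thio lay between with an overlap on each side, and the medians of osimertinib and the combination were both 271. The ratio depends on the lengths of the transcripts, so it compares libraries and not the levels of the genes.

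**Figure D2:**
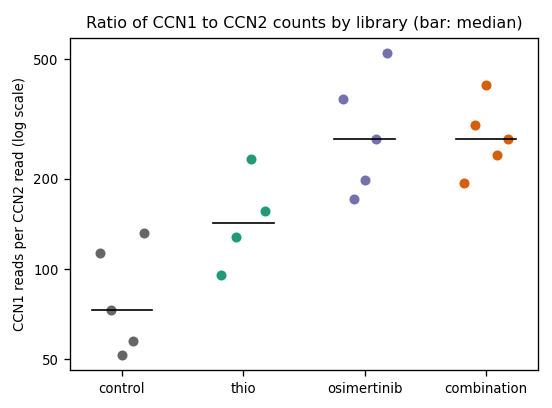
CCN1 reads per CCN2 read (y axis, log scale) in each of the 19 libraries (points), with the group median as a bar. The control points, from 51.8 to 132, lie below all osimertinib points (171 to 526) and all combination points (194 to 412).

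CCN1 reads per YAP1 read, chosen in the same way and with no test, had a control median of 1.94, a thio median of 2.67, an osimertinib median of 2.96 and a combination median of 4.13. The combination libraries ran from 3.91 to 4.75 and lay above all control libraries (1.46 to 3.44) and above all others. The highest osimertinib library was at 3.9, just under the lowest of the combination.

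ANKRD1, a nuclear ankyrin-repeat protein first known from striated muscle and used as a YAP target, was called in no comparison by edgeR. Its control libraries were at 6.64, 4.87, 7.37, 4.04 and 1.77 CPM and its thio libraries at 2.58, 4.07, 1.15 and 2.34 CPM. Its osimertinib libraries were at 4.31, 3.31, 1.69, 3.84 and 3.24 CPM and its combination libraries at 2.58, 2.12, 4.41, 3.03 and 3.27 CPM. Control 1 and control 3 were above all others and control 5 was among the lowest, so control had the widest spread. Against control the values were -0.95 ± 0.372 (adjusted p = 0.0888) in thio, -0.59 ± 0.343 (adjusted p = 0.362) in osimertinib and -0.68 ± 0.347 (adjusted p = 0.11) in the combination.

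The value under thio was called by DESeq2 (-0.97, adjusted p = 0.0469), without control 5 (-1.17, adjusted p = 0.032) and without thio 2 (-1.28, adjusted p = 0.0328), and that of the combination without control 5 (-0.89, adjusted p = 0.0258). ANKRD1 had 26 to 214 counts per library. Skeletal muscle markers, of which 10 of 11 were in the table and none was at 0 in any library, summed to 879.5 CPM in control 1 and 959.7 CPM in control 3, the libraries with the most ANKRD1. They summed to 62.6 to 240.5 CPM in the other controls, 102 to 157 in thio, 83.7 to 165 in osimertinib and 137 to 803 in the combination. Combination 5 had the 803 CPM with ANKRD1 at 3.27 CPM. The part of muscle RNA in the ANKRD1 values was not tested.

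**Figure D3:**
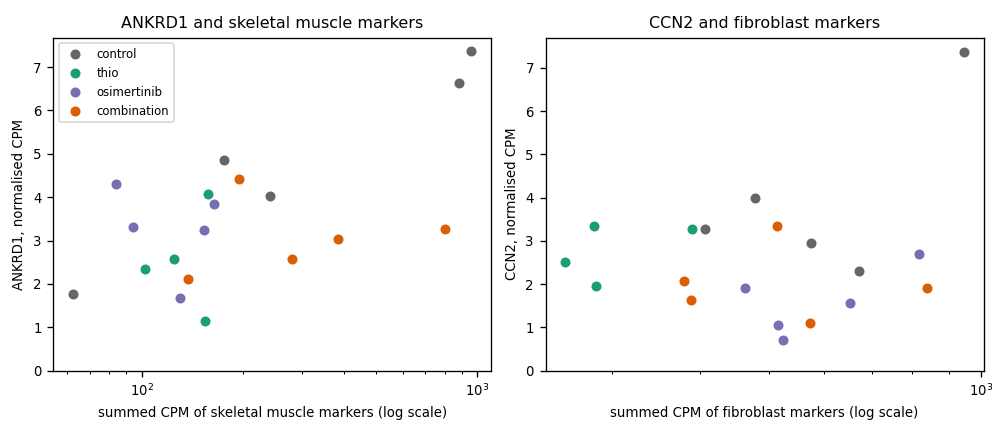
Left, ANKRD1 (y axis, normalised CPM) against the summed CPM of 10 skeletal muscle markers (x axis, log scale), and right, CCN2 against the summed CPM of 10 fibroblast markers, with 1 point per library coloured by group. Control 1 and control 3 hold the highest ANKRD1 and the highest muscle sums, and control 3 the highest CCN2 and fibroblast sum.

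The remaining genes, AMOTL2, AJUBA, LATS2 and CRIM1, include restraints and feedback targets of the pathway. AMOTL2, an angiomotin that binds YAP1 and is itself a YAP target, rose under thio. It was at 66.7, 61.6, 69.1, 77.2 and 68.8 CPM in control and at 96.7, 95.7, 127 and 76.1 CPM under thio. Of the thio libraries 3 lay above all controls, and thio 4 lay just below control 4. The rise was 0.52 ± 0.169, or 1.44-fold (adjusted p = 0.0428).

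The AMOTL2 call was lost without thio 3 (0.38, adjusted p = 0.217), thio 1 (adjusted p = 0.0885), thio 2 (adjusted p = 0.0625), control 1 (adjusted p = 0.0678), control 2 (adjusted p = 0.0702), control 3 (adjusted p = 0.0797), control 4 (adjusted p = 0.05, at the threshold) or control 5 (adjusted p = 0.0691). It was lost too without osimertinib 1 (adjusted p = 0.0523), osimertinib 2 (adjusted p = 0.0503) or combination 2 (adjusted p = 0.0526), without the 3 libraries (0.37, adjusted p = 0.182), with upper-quartile scaling (adjusted p = 0.0531), with no filter (adjusted p = 0.0689) and with only the compared groups (adjusted p = 0.0602). Under osimertinib AMOTL2 was at 62.1 ± 14.7 CPM (SD, n = 5) and in the combination at 76.8 ± 14.3 (n = 5). The combination had -0.36 ± 0.169 against thio (adjusted p = 0.0868), which was called without thio 4 (-0.48, adjusted p = 0.0378), without combination 1 (-0.47, adjusted p = 0.0252) and by limma voom (-0.34, adjusted p = 0.0427).

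LATS2, the kinase that phosphorylates YAP1, was lower in the combination than in thio. It was at 19.3, 21.9, 27.1 and 19.3 CPM under thio and at 18.5, 16.6, 15.5, 14.0 and 13.2 CPM in the combination. The groups did not overlap. The difference was -0.49 ± 0.152 (adjusted p = 0.0133). It was lost without thio 3 (-0.39, adjusted p = 0.0559), with upper-quartile scaling (-0.31, adjusted p = 0.0675), without the 3 libraries (-0.30, adjusted p = 0.213) and with the mitochondrial percent as a covariate (-0.16, adjusted p = 0.745).

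Control LATS2, at 17.8, 17.4, 15.4, 14.3 and 16.8 CPM, also lay wholly below thio, but that difference of 0.42 ± 0.152 did not pass (adjusted p = 0.0678). It was called without osimertinib 3 (adjusted p = 0.0374). Under osimertinib LATS2 was at 14.5, 14.2, 20.6, 12.8 and 12.6 CPM, and osimertinib 3 stood above the others. The order of the means was thio, control, combination, osimertinib, and the last 3 overlapped.

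CRIM1, a transmembrane protein that binds bone morphogenetic proteins and is listed among YAP targets, had the largest difference between the combination and thio of the 4 called. It was at 68.0, 64.6, 81.8 and 60.2 CPM under thio and at 56.4, 39.8, 40.1, 42.1 and 31.2 CPM in the combination. The groups did not overlap. The difference was -0.71 ± 0.178, a fold of 0.611 (adjusted p = 0.00344). It kept its call when any single library was left out, with a range of -0.84 to -0.62, but not without the 3 libraries (-0.48, adjusted p = 0.0907) or with the mitochondrial percent as a covariate (-0.16, adjusted p = 0.741).

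Against control CRIM1 had 0.43 ± 0.178 under thio (adjusted p = 0.106) and -0.28 ± 0.169 in the combination (adjusted p = 0.175), and the control libraries ran from 37.8 to 64.8 CPM. Leaving out combination 1 gave a call of the combination against control (-0.41, adjusted p = 0.0447) and against osimertinib (-0.49, adjusted p = 0.0335). With all libraries the value against osimertinib was -0.36 ± 0.169 (adjusted p = 0.132), and limma voom called it (-0.38, adjusted p = 0.0259) and the value under thio (0.41, adjusted p = 0.0496).

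AJUBA, a LIM-domain protein that binds LATS kinases and restrains them, was the weakest of the called differences between the combination and thio. It was at 63.8, 60.7, 103 and 63.2 CPM under thio and at 65.4, 56.7, 54.8, 53.6 and 33.7 CPM in the combination. Thio 3 stood far above the other thio libraries and combination 5 far below the other combination libraries, and combination 1 lay above 3 of the 4 thio libraries. The difference was -0.46 ± 0.179 (adjusted p = 0.0428). It was lost without thio 3 (-0.26, adjusted p = 0.221), combination 2 (adjusted p = 0.0534), combination 3 (adjusted p = 0.0629), combination 4 (adjusted p = 0.062) or combination 5 (adjusted p = 0.105).

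The AJUBA difference turned to 0.0828 (adjusted p = 0.887) with the mitochondrial percent as a covariate, and was -0.0940 (adjusted p = 0.662) without the 3 libraries. It was lost also with upper-quartile scaling (-0.28, adjusted p = 0.159), with limma voom (-0.25, adjusted p = 0.114), with no filter (adjusted p = 0.053) and with only the compared groups (adjusted p = 0.0896). In control AJUBA was at 66.0 ± 10.2 CPM (SD, n = 5) and in osimertinib at 59.0 ± 7.42 (n = 5). It was not called against control in any group.

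The 4 genes called lower in the combination than in thio were thus all lost in the fit with the mitochondrial percent and without the 3 libraries, and in the latter fit CCN1, higher, was the 1 gene called. The mitochondrial percent did not overlap between these groups (5.27 to 7.87% in thio and 11.0 to 30.2% in the combination). Its part in these differences was not tested apart from the drugs, and the covariate takes up part of the group difference by construction.

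**Figure D4:**
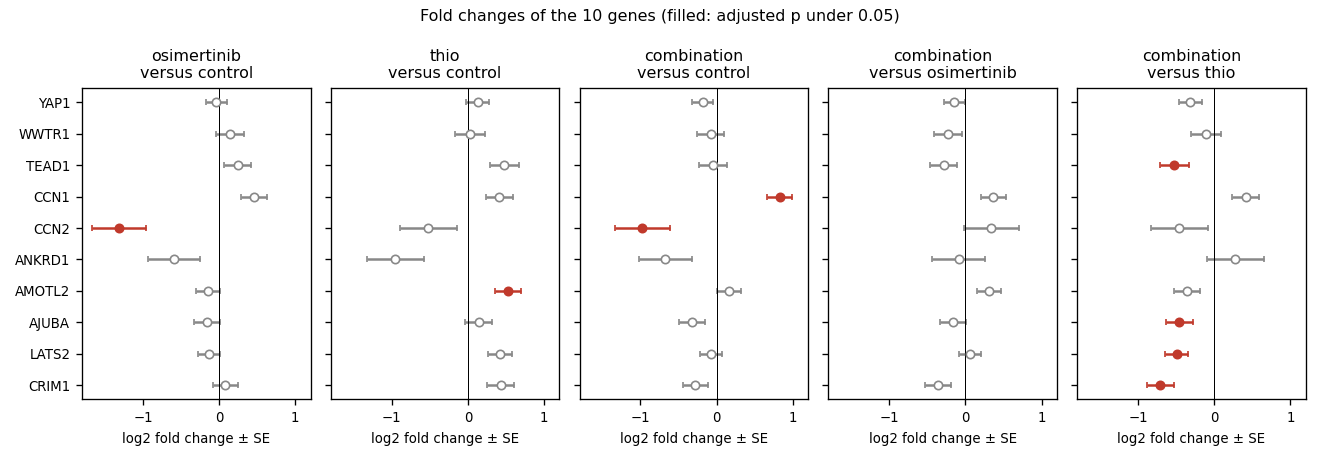
Log2 fold change (x axis) with SE of the 10 genes in the 5 pairwise comparisons, filled red where the adjusted p was under 0.05. CCN1 lies to the right in every panel and is called at 0.83 in the combination against control, CCN2 is called to the left at -1.31 under osimertinib and -0.97 in the combination, and 4 genes are called to the left between the combination and thio.

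The interaction of the drugs asked whether thio had another effect in the presence of osimertinib. The smallest p-values were those of CRIM1, -0.79 ± 0.245 (adjusted p = 0.0648), and TEAD1, -0.76 ± 0.264 (adjusted p = 0.0849). In each of them the mean was higher under thio than in control and lower in the combination than under osimertinib. CRIM1 was called by DESeq2 (adjusted p = 0.0331), by limma voom (adjusted p = 0.0121) and without osimertinib 5 (adjusted p = 0.042) or combination 1 (-0.92, adjusted p = 0.0224). TEAD1 was called by limma voom (adjusted p = 0.0233) and without combination 1 (-0.85, adjusted p = 0.043). The other 8 genes had unadjusted p values above the threshold, with values from -0.36 for LATS2 to 0.87 for ANKRD1 and a lowest adjusted p of 0.272.

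The 10 genes differed in their spread within groups. The within-group SD of log2 CPM ran from 0.217 for LATS2 and 0.218 for YAP1 to 0.59 for CCN2 and 0.621 for ANKRD1. For LATS2 32.7% of genes within 1 log2 unit of its level had a smaller SD, for YAP1 47.5%, for CCN1 62.6%, for CCN2 76.7% and for ANKRD1 85.8%. From the lowest to the highest library YAP1 differed 1.67-fold, CCN1 2.84-fold and CCN2 10.5-fold.

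The upstream cascade was read from a list of 15 kinases and scaffolds. Under thio 3 of the 15 rose, 0 fell and 12 did not pass, where 9.27% of all genes rose and 4.63% fell. SAV1, the scaffold of STK3 and STK4, rose by 1.29 ± 0.247 (adjusted p = 0.00271), from a mean of 24.5 CPM to 60.0 CPM, with some overlap. LATS1, the kinase next to YAP1, rose by 0.75 ± 0.168 (adjusted p = 0.00715) and TAOK1, a kinase at the head of the cascade, by 0.71 ± 0.172 (adjusted p = 0.0115). When only thio and control were fitted, LATS1 (adjusted p = 0.057) and TAOK1 (adjusted p = 0.0639) were lost, and SAV1 stayed called in all 27 alternatives. With the mitochondrial percent as a covariate 4 of the 15 were higher and 2 lower. The list median was 0.15, and that of all genes 0.00582.

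In the combination 1 of the 15 was higher than in control, 7 were lower and 7 did not pass, with a list median of -0.36. Of all genes 48.7% were called there (25.7% higher and 23.1% lower), so the total of 8 called of 15 was near the background. The split by direction was not, with 7 lower and 1 higher. TAOK2, another kinase at the head of the cascade, fell by 0.60 on the log2 scale (adjusted p = 0.000255), and FRMD6, a membrane-linked activator, fell by 0.71 (adjusted p = 0.00825). MOB1B, a cofactor of LATS kinases, rose by 0.45 (adjusted p = 0.00218). The counts of higher and lower genes were 1 and 4 without combination 3, 1 and 4 without combination 5, 1 and 2 without these and thio 3, and 0 and 0 with the mitochondrial percent as a covariate. They were 2 and 5 without control 1, 2 and 6 without control 2, and 2 and 7 without osimertinib 3 or osimertinib 4.

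Against thio 1 of the 15 was higher in the combination, 9 were lower and 5 did not pass, with a list median of -0.53 against 0.0281 for all genes, of which 21.2% were higher and 22.9% lower. SAV1 fell by 1.65 on the log2 scale (adjusted p = 8.83e-05), WWC1, a scaffold that activates LATS kinases, fell by 0.79 (adjusted p = 0.000427) and FRMD6 fell by 1.03 (adjusted p = 0.00103). For all 3, which were named for their small p, the combination libraries lay wholly below the thio libraries. The share of all genes so separated was not computed. The counts stayed at 1 higher and 8 to 10 lower when single libraries were left out, but were 1 and 3 without the 3 libraries and 0 and 0 with the mitochondrial percent as a covariate.

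Under osimertinib edgeR called 0 of the 15, against 4.16% of all genes. DESeq2 called 1 and limma voom 2, and 4 had an unadjusted p under 0.05. Leaving out control 1 gave 1 higher. Set against osimertinib, 1 was lower in the combination (7.66% of all genes were), TAOK2, at -0.37 ± 0.106 (adjusted p = 0.0263). It was lost without osimertinib 1, osimertinib 2, osimertinib 3, combination 2, combination 3 or combination 5. It was lost too with no filter, with only the compared groups, with the mitochondrial percent as a covariate and without the 3 libraries (highest adjusted p = 0.405). There were 3 genes lower without combination 1. Of all genes 3.45% had a called interaction. SAV1 was the 1 gene of the pathway lists with one, at -1.34 ± 0.341 (adjusted p = 0.0421). The means were 24.5 CPM for control, 60.0 for thio, 19.8 for osimertinib and 19.1 for the combination. This interaction call was lost with the mitochondrial percent as a covariate and without the 3 libraries (highest adjusted p over all alternatives 0.284). The number of the 15 with a called interaction was 0 without control 3, control 4, control 5, thio 1, thio 3, osimertinib 1 to osimertinib 3 or combination 2 to combination 5. It was 2 without thio 2 or thio 4, 3 without control 2 or osimertinib 5 and 4 without osimertinib 4 or combination 1.

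Among the other partners of YAP1 and TEAD1, the calls were few outside the combination, where calls over all genes were also fewer. Of all genes 4.16% were called under osimertinib, 13.9% under thio and 48.7% in the combination against control. Between the combination and osimertinib 15.8% were called, and between the combination and thio 44.2%. The 2 of 4 relatives called in the combination against control were thus near the background. Of 4 angiomotin and AJUBA relatives, AMOTL1, an angiomotin, fell in the combination by 1.61 on the log2 scale (adjusted p = 0.000127), from a mean of 38.02 to 12.4 CPM, with no overlap. WTIP, a LIM protein like AJUBA, rose by 0.66 (adjusted p = 0.0222). This did not pass once control 1, control 5, combination 2, combination 3 or combination 4 was left out. WTIP was lost too with no filter, with the mitochondrial percent as a covariate and without the 3 libraries (highest adjusted p = 0.343). Without control 2 the list had 2 higher and 1 lower. AMOTL1 was also lower in the combination than in thio, at -1.50 ± 0.268 (adjusted p = 0.000302). AMOTL1 with the mitochondrial percent as a covariate was not called against control (adjusted p = 0.0657) or thio (adjusted p = 0.179), and the list counts were 0 and 0. Against osimertinib AMOTL1 had -0.81 ± 0.255 (adjusted p = 0.0374). This was lost without osimertinib 1, osimertinib 2, osimertinib 3, combination 2, combination 3 or combination 5. It was lost too with the mitochondrial percent as a covariate and without the 3 libraries (highest adjusted p = 0.563). With either drug alone edgeR called 0 of the 4. Under osimertinib 1 had an unadjusted p under 0.05, DESeq2 and limma voom each called 1 lower, and so did edgeR without control 5 or osimertinib 3. Under thio 0 had an unadjusted p under 0.05 and DESeq2 called 0, and 1 was higher without control 2.

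Of 6 other TEAD and VGLL genes, VGLL1, a cofactor that binds TEADs, rose in the combination against control by 1.77 ± 0.362 (adjusted p = 0.000783), from 3.17 to 10.9 CPM, with no overlap. TEAD4 had -0.54 ± 0.166 (adjusted p = 0.0112) and TEAD2 -0.32 ± 0.123 (adjusted p = 0.0358) in that comparison. These 3 of 6 called, 1 higher and 2 lower, were near the background of 48.7% of all genes (25.7% higher and 23.1% lower). TEAD2 was lost without control 2, control 4, combination 2, combination 3 or combination 4. It was lost too with upper-quartile scaling, with only the compared groups and with the mitochondrial percent as a covariate (highest adjusted p = 0.513). Both TEAD2 and TEAD4 were lost without the 3 libraries together. Neither VGLL1 (adjusted p = 0.0747) nor TEAD4 (adjusted p = 0.484) was called against control with the mitochondrial percent as a covariate, and the list counts were 0 and 0. Under thio TEAD2, the 1 gene of the 6 called against 13.9% of all genes, had -0.41 ± 0.131 (adjusted p = 0.0412). This was lost when thio 1, thio 3, thio 4, control 2, control 3, control 4, osimertinib 1 or osimertinib 2 was left out. It was lost too with no filter, with only the compared groups and without the 3 libraries together (highest adjusted p = 0.134). Without control 2 or thio 4 another of the 6 was higher and 0 were lower under thio. Under osimertinib edgeR and DESeq2 called 0 of the 6, with 1 at an unadjusted p under 0.05, where edgeR called 4.16% of all genes. In the combination edgeR called 0 of the 6 against osimertinib (2 at an unadjusted p under 0.05), where it called 15.8% of all genes. Against thio it called 0 (1 at an unadjusted p under 0.05), where it called 44.2% of all genes. DESeq2 called 1 in each of these comparisons. Against osimertinib 1 was higher without combination 1, and against thio 1 was higher without control 1, control 2, thio 1, osimertinib 4 or combination 1, the last with 1 lower.

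Of 15 further genes from YAP signatures 14 passed the filter. Under thio 3 rose and 0 fell, where 9.27% of all genes rose: DOCK5, an activator of Rac, by 0.63 ± 0.138 (adjusted p = 0.00655), IGFBP3, a binding protein of insulin-like growth factors, by 1.32 ± 0.291 (adjusted p = 0.0066), and ASAP1, a regulator of Arf GTPases, by 0.48 ± 0.123 (adjusted p = 0.0152). In all 3, named for their small p, every thio library lay above every control library. How many of all genes separate so was not computed. IGFBP3 was lost without thio 3, without the 3 libraries and with only the compared groups (highest adjusted p = 0.0588), while DOCK5 and ASAP1 stayed called in all 27 alternatives. The counts were 2 higher and 1 lower without thio 3, and 5 higher and 1 lower without combination 5. They were 6 and 1 with the mitochondrial percent as a covariate.

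In the combination 5 of the 14 rose against control, 0 fell and 9 did not pass, with a list median of -0.0983. Of all genes 25.7% rose and 23.1% fell there, 48.7% in all, so the share called was not above the background. DOCK5 rose by 0.93 ± 0.132 (adjusted p = 5.14e-05), ASAP1 by 0.52 ± 0.116 (adjusted p = 0.00153) and ARHGEF17 by 0.47 ± 0.106 (adjusted p = 0.00158). All 3, again named for their small p, had groups that did not overlap, and the share of all genes that do so was not computed. DOCK5 stayed called in all 27 alternatives, and it was the 1 gene of the list still called with the mitochondrial percent as a covariate. The count was 5 higher and 1 lower without combination 1 and 4 higher without the 3 libraries.

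Compared with osimertinib 5 of the 14 were higher in the combination (8.09% of all genes), led by DOCK5 (0.57, adjusted p = 0.0132), MYOF, a membrane repair protein (0.67, adjusted p = 0.0178), and ARHGEF17 (0.39, adjusted p = 0.024). This count fell to 1 without combination 3 or combination 5, to 2 without osimertinib 1 or osimertinib 3, to 3 without osimertinib 2, osimertinib 4 or combination 2, and to 0 without the 3 libraries or with the mitochondrial percent as a covariate, and was 5 with 1 lower without combination 1. Compared with thio 0 of the 14 were higher in the combination (4 by limma voom) and 2 were lower, where 21.2% of all genes were higher and 22.9% lower. The 2 were IGFBP3 (-1.59, adjusted p = 0.000363) and F3, the tissue factor of coagulation (-0.61, adjusted p = 0.00884). The share called was thus below the background. Both IGFBP3 (adjusted p = 0.107) and F3 (adjusted p = 0.877) were lost with the mitochondrial percent as a covariate, and F3 was lost also without the 3 libraries. There 1 was higher as well without thio 3, combination 1 or combination 5. Under osimertinib alone ASAP1 was the 1 gene of the 14 called, against 4.16% of all genes, at 0.42 ± 0.116 (adjusted p = 0.0422). This was lost without control 2, control 3, control 4, control 5, thio 1, thio 2, thio 4 or any osimertinib library. It was lost too with RLE scaling, with no filter and with the mitochondrial percent as a covariate (highest adjusted p = 0.118).

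CCN5, a secreted relative of CCN1 and CCN2, passed the filter together with CCN3. It rose in the combination against control by 2.22 ± 0.336 (adjusted p = 8.52e-05), from 0.625 to 2.95 CPM, a low level, and stayed called in all 27 alternatives. It was also higher against thio (1.78, adjusted p = 0.000663) and against osimertinib (1.22, adjusted p = 0.0197). With the mitochondrial percent as a covariate the call against thio was lost (adjusted p = 0.234), as was that against osimertinib. The latter was lost too without osimertinib 3, combination 3, combination 5 or the 3 libraries (the highest adjusted p over all alternatives was 0.411).

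A list of 12 actin cytoskeleton genes and SRF targets was included because actin tension is known to act on YAP1 and because SRF shares CCN1 and CCN2 among its targets. In the combination 10 of the 12 were lower than in control, 0 were higher and 2 did not pass, with a list median of -0.66 against 0.0171 for all genes, of which 23.1% were lower and 48.7% called. The transcription factor SRF fell by 1.43 on the log2 scale (adjusted p = 0.000122), from a mean of 52.6 to 19.5 CPM. MYH9, the heavy chain of nonmuscle myosin, fell by 1.21 (adjusted p = 0.000575) and FLNA, an actin cross-linker, fell by 1.22 (adjusted p = 0.000757). All 3, named for their small p, had combination libraries wholly below the control libraries. The share of all genes with such a separation was not computed. The count ran from 7 to 11 when single libraries were left out, and was 6 without the 3 libraries and 0 with the mitochondrial percent as a covariate.

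Compared with thio 6 of the 12 were lower in the combination (22.9% of all genes) and 0 higher, led by MRTFA, the actin-sensing partner of SRF (-0.79, adjusted p = 0.000238), SRF (-1.35, adjusted p = 0.000267) and MYH9 (-1.16, adjusted p = 0.00118). The count was 4 without the 3 libraries and 0 with the mitochondrial percent as a covariate. Against osimertinib 4 of the 12 were lower (7.66% of all genes), led by SRF (-0.90, adjusted p = 0.0174), MYH9 (-0.82, adjusted p = 0.0276) and FLNA (-0.75, adjusted p = 0.0435). That count was 0 without osimertinib 3, combination 3 or combination 5, 1 without osimertinib 1 or osimertinib 2, and 2 without control 4, thio 1, thio 2, thio 4 or combination 2, and 0 with the mitochondrial percent as a covariate or without the 3 libraries. In the interaction edgeR called 0 of the 12, against 3.45% of all genes. DESeq2 called 1 and limma voom 3, with 4 at an unadjusted p under 0.05. Without thio 2 or osimertinib 5 there was 1, and without combination 1 there were 3. The mitochondrial percent was 8.62 to 16.0% in osimertinib and 11.0 to 30.2% in the combination, and its part in these counts was not tested apart from the drugs.

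With either drug alone 1 of the 12 was lower, MYL9, a light chain of smooth muscle and nonmuscle myosin, and 0 were higher. The background for osimertinib was 4.16% called, of which 1.46% fell, and for thio 13.9% called, of which 4.63% fell. Under thio the share of the list called was thus not above the background. MYL9 had -1.27 ± 0.348 under osimertinib (adjusted p = 0.0422) and -1.43 ± 0.378 under thio (adjusted p = 0.0175). The first was lost without control 3, control 4, any osimertinib library, combination 3 or combination 4. It was lost too with upper-quartile scaling, with only the compared groups and with the mitochondrial percent as a covariate (highest adjusted p = 0.186). The second was lost without control 3, thio 3 or the 3 libraries together, and with only the compared groups (highest adjusted p = 0.0863). Under thio 1 gene of the list was higher without control 2 or combination 1. Fibroblasts also express MYL9. Their marker sums, to which COL1A1 gave the most, did not overlap between thio (257.6 to 389.7 CPM) and control (406.6 to 945.5 CPM). Those of osimertinib overlapped control, and the part of these cells was not tested.

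**Figure D5:**
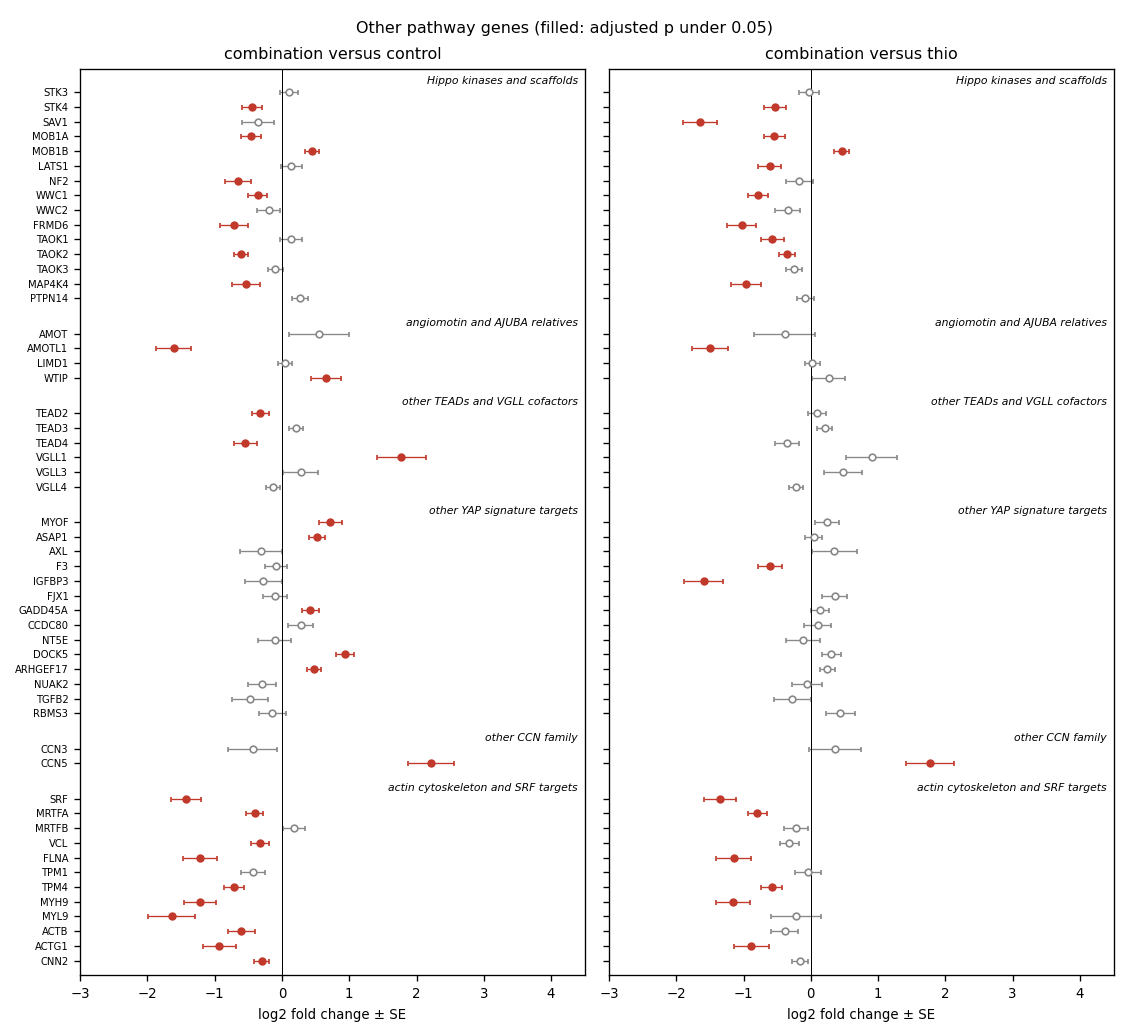
Log2 fold change (x axis) with SE of the other pathway genes by list, for the combination against control (left) and against thio (right), filled red where the adjusted p was under 0.05. In the left panel 10 of 12 actin genes are called lower and 5 of 14 signature targets higher, and in the right panel 9 of 15 Hippo kinases and scaffolds are called lower.

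The direction of calls over all genes depended on the scaling. With upper-quartile scaling 63.4% of calls were higher in the combination against control, against 52.7% with the main scaling. The shares were 64.8% against 51.4% for the combination and osimertinib, and 65.5% against 48.1% for the combination and thio. For thio against control they were 55.6% against 66.7%, and for the interaction 57.3% against 35.9%. The calls of CCN1 and CCN2 in the combination against control, and of CRIM1 against thio, were kept with that scaling, while those of TEAD1, AJUBA and LATS2 against thio were not.

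The genes whose pattern over the 19 libraries was most like that of 4 targets were taken by the smallest root mean square difference (RMSD) of gene-centred log2 CPM, among 11576 genes with a mean log2 CPM of at least 2. For CCN1, whose own root mean square deviation was 0.387, they were PRKAG2 (RMSD 0.191), ASAP1 (0.259) and CTH (0.262). PRKAG2 was 0.58 ± 0.155 higher in the combination than in control. It was picked for its likeness to CCN1 in these same libraries, so that value is no separate support. For CCN2, at 0.728, they were TBC1D16 (0.495), IL17RD (0.509) and ALDH1A3 (0.517), a looser likeness. For ANKRD1, at 0.638, they were LINC03124 (0.377), OLFM2 (0.425) and TIGAR (0.455), and for AMOTL2, at 0.335, TNS3 (0.178), SNX9 (0.178) and SIK3 (0.182). ASAP1, near CCN1 by this measure, is also in the list of signature targets.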

How the data were processed

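Libraries of poly-A RNA came from a kit without strand information. Per the submitters' processing notes FastQC, Trimmomatic and STAR were used with hg38; which counter and annotation served, and whether host reads were removed, is not given in the sources used here. Unnormalised counts by gene symbol were deposited by the authors as 1 table. Its symbols are human although the mouse is the labelled organism, and they were taken as human genes. Columns not used numbered 0.

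In R 4.3.3, edgeR 4.0.16 (filterByExpr, count minimum 10 and total minimum 15, TMM, quasi-likelihood) fitted 4 group means over 19 libraries, and was tested on simulated data. CPM are TMM-normalised. Replicate numbers follow accession order and pair no samples. No libraries were identical (highest r of log2 CPM 0.989).

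The 10 genes, the lists and the 3 libraries left out were chosen with earlier results of these data known. Named from each other list were up to 3 called genes of smallest p per comparison, and 3 most alike genes for 4 targets. Alternatives were DESeq2 1.42.0, limma 3.58.1 voom with quality weights, RLE or upper-quartile scaling, no filter, only the compared groups, the mitochondrial percent as a covariate, leaving out 3 libraries, and each library. Figures used Python 3.11.15 and matplotlib 3.10.9. Gene length was not used, so levels are not compared between genes.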

Additional observations from a re-analysis of the deposited data

Results flagged for a closer look

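In thio the highest library for AJUBA, thio 3, was at 103.4 CPM, far from the other 3 thio libraries. In osimertinib the highest library for LATS2, osimertinib 3, was at 20.64 CPM, away from the other 4. These were 2 of 40 groups of the 10 genes examined for a library that stands apart, and chance alone marks about 5% of groups. SAV1 differed between the arms: its log2 fold change under thio in the presence of osimertinib was 1.34 lower than in its absence (-1.343, adjusted p = 0.0421). An interaction was called for 3.45% of all genes. The SAV1 call was lost in 15 of 26 alternatives, with a highest adjusted p of 0.284. It was lost with the mitochondrial percent as a covariate and without combination 3, combination 5 and thio 3 together. The single libraries whose removal lost it were control 1, control 3, control 4, control 5, thio 1, thio 3, osimertinib 1, osimertinib 2, osimertinib 3, combination 2, combination 3, combination 4 and combination 5.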

How the results depend on the processing

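No paired analysis was possible because replicate numbers follow accession order and tie no library of one group to a library of another. Of the 10 genes, leaving out single libraries gave 0 to 1 called for osimertinib and 0 to 2 for thio against control, 1 to 3 for the combination against control, 0 to 1 against osimertinib, 1 to 6 against thio, and 0 to 2 for the interaction. DESeq2 called 2 under thio and 1 in the interaction. limma voom called 3 under thio, 2 between the combination and osimertinib and 2 in the interaction. Upper-quartile scaling gave 0 under thio and 2 between the combination and thio, no filter gave 0 under thio, and the compared groups alone gave 0 under osimertinib and 0 under thio. The mitochondrial covariate gave 0 under osimertinib, 1 in the combination against control and 0 against thio, where AJUBA reversed to 0.0828 (-0.46 in the report). Without combination 3, combination 5 and thio 3 the counts were 0 under thio, 1 in the combination against control and 1 against thio. The causes were not tested.

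Counts over all genes moved as well. For osimertinib against control 695 genes were called, with 1201 by DESeq2, 1528 by limma voom, 451 with the compared groups alone, 322 with the mitochondrial covariate, 1154 without the 3 libraries, and 217 to 910 without single libraries (control 3, control 4, osimertinib 1, osimertinib 2, osimertinib 4 and osimertinib 5 moved it by over 1.5 times). For thio against control 2322 became 790, 3516, 910 and 736 to 2807 (control 3, thio 1 and thio 3) with the compared groups alone, the covariate, without the 3 libraries and without single libraries. For the combination against control 8139 became 542 with the covariate, 4660 without the 3 libraries and 6552 to 8777 without single libraries. Against thio 7378 became 191, 3311 and 6184 to 8082 in the same order. Against osimertinib 2632 became 3, 6 and 492 to 4693 (osimertinib 1 to osimertinib 3, combination 1 to combination 3 and combination 5), and 5327 by limma voom. For the interaction 576 became 0, 0 and 0 to 2157 (all libraries but thio 4), with 1757 by DESeq2 and 2802 by limma voom.

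Of 60 fold changes of the 10 genes, 39 had an unadjusted p over the threshold; their 1045 refits turned the sign 62 times, in 23 of them, and 2 refits were called. CCN2 and ANKRD1 rest on 16 to 214 and 26 to 214 counts per library, which limits their precision.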
